A study of Mus musculus with 40 samples.

Results

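The genes described here are those of MHC class I antigen presentation and the immunoproteasome: H2-K1, H2-D1, B2m, Tap1, Tap2, Tapbp, Psmb8, Psmb9, Psmb10 and Nlrc5. They were taken by symbol from the table of counts per gene, which holds 24062 genes, and all 10 were in it. All 10 passed the filter on low counts in every comparison. They were followed in primary mouse embryonic fibroblasts (MEFs) over culture, genotype and treatment with doxorubicin, a topoisomerase II poison that breaks DNA.

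Almost every nucleated cell shows peptides of its own proteins on MHC class I molecules, each made of a heavy chain (here H2-K1 or H2-D1) and the light chain B2m. Peptides are cut by the proteasome, pumped into the endoplasmic reticulum by the Tap1-Tap2 transporter and loaded onto the heavy chain with the help of Tapbp (tapasin). Interferons induce Psmb8, Psmb9 and Psmb10, which replace the standard catalytic subunits Psmb5, Psmb6 and Psmb7 in the immunoproteasome, and induce Nlrc5, a transactivator of class I genes that acts at their promoters. Fibroblasts are known to express this machinery at a low basal level.

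The MEFs came from embryos of 13.5 days post coitum on a mixed C57BL/6J-129P2OlaHsd strain and were used at passage 3, in DMEM with fetal bovine serum. They were wild type (WT, 1 embryo), heterozygous (Het, 1 embryo) or knockout (KO, embryos 1, 2 and 3) for Sall2, a zinc finger transcription factor, and were left untreated (control) or given 1 µM doxorubicin for 16 h. The knockout allele was made by gene targeting in 129P2 embryonic stem cells and carries a neomycin cassette, so that KO cells also hold 129P2 sequence around Sall2 on chromosome 14. None of the genes described here lies on that chromosome. The paper also describes variants of the stem cell strain on other chromosomes of this line. It reports that the distribution of variants differed between WT and KO on some chromosomes besides that of Sall2. Whether such background differences affect the genes described here was not tested. WT and Het have no replicate within a treatment, and p-values measure only the spread between these samples.

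The table has 10 columns, but those of KO embryos 2 and 3 with doxorubicin are identical in all 24062 genes. They were counted once, under the name of KO embryo 2, which leaves 9 libraries with totals of 15560728 to 24122414 counts. Which of the 2 embryos this library comes from cannot be told, and its ratio to KO 3 control is given beside that to KO 2 control. Libraries of the same genotype and number are called a culture here, after their titles; the labels do not say that they come from the same embryo. In control, Sall2 stood at 38.0 CPM (counts scaled to a common library total with TMM) for WT, beside 19.1 to 24.4 for Het and KO, and with doxorubicin at 9.36 for WT, 7.80 for Het and 3.72 to 4.19 for KO. The highest KO control value lay above that of Het. The counts are per gene, and reads of the targeted part were not counted apart. Both Het libraries and the control library of KO embryo 3 stood apart from the other 6. Their 10 fibroblast markers summed to 16588 to 21967 CPM against 47592 to 97070, their 15 leukocyte markers in the table (14 above 3 counts in some library; the T cell marker Cd3e at 0 to 5 counts) to 551 to 880 CPM against 114 to 261, and their 17 interferon-stimulated genes to 1689 to 3131 CPM against 170 to 513. The leukocyte markers did not all follow their sum. In 8 of the 15 these 3 libraries lay above the other 6, among them Lyz2, which made up 336 of the 789 CPM in Het control. Mrc1, a macrophage receptor named after its values were seen, lay below in all 3, at 0.271 to 0.523 CPM against 0.827 to 9.16. Nor did every fibroblast marker follow its sum, of which Fn1 made up 46355 of 97070 CPM in WT control. Col1a1, Dcn and Pdgfrb are named after their values were seen. Col1a1 lay below in all 3, at 4190 to 6055 CPM against 13063 to 24285. Dcn overlapped, at 41.9 to 68.3 CPM against 40.2 to 161. Pdgfrb was at 215 and 218 CPM in Het and KO 3 control, above WT and KO with doxorubicin (54.0 to 76.4). In bulk RNA, fewer cells of a type and less RNA per cell cannot be told apart.

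**Figure D1:**
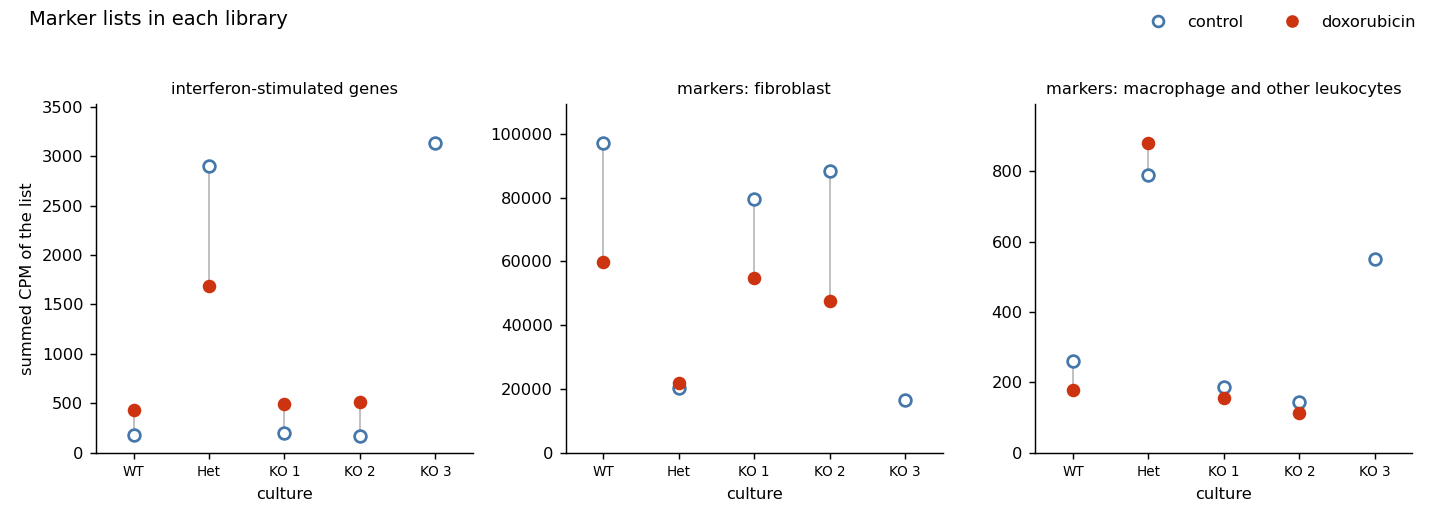
Summed CPM (linear axes from 0) of 17 interferon-stimulated genes, 10 fibroblast markers and 15 leukocyte markers in each of the 9 libraries, by culture; open points are control and filled points doxorubicin, with a line joining the libraries of a culture. The Het libraries and KO 3 control have the lowest fibroblast sums, 16588 to 21967 CPM, and the highest leukocyte sums, 551 to 880 CPM.

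In GRCm38, 7 of the 10 genes lie on chromosome 17: Tapbp at chr17:33915899-33929292, H2-K1 at chr17:33996017-34000347 on the minus strand and H2-D1 at chr17:35262730-35267499. Between them, Psmb9 (chr17:34181987-34187764, minus strand), Tap1 (chr17:34187553-34197225), Psmb8 (chr17:34197721-34201454) and Tap2 (chr17:34203527-34216321) sit side by side within 34335 bases. B2m is at chr2:122147686-122153083, Nlrc5 at chr8:94434356-94527272 and Psmb10 at chr8:105935735-105938444 on the minus strand. In the GENCODE annotation Psmb9 and Tap1 overlap at their starts on opposite strands, and Psmb8 and Tap2 overlap an antisense transcript. The strand setting of the counting is not given in the sources used here, so reads in such overlaps could fall to either gene or be left uncounted. H2-K1 and H2-D1 have close paralogs, with which reads can be shared or lost.

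Psmb9 and Tap1 are transcribed away from each other, and between their RefSeq starts lie 225 bases. Bases before the start of a gene were searched on both strands for an interferon regulatory factor core (AANNGAAA), a STAT site of the GAS type (TTCNNNGAA), a CCAAT box, the NF-kB consensus and the p53 half-site. The sequences below are from RefSeq (GRCm38.p6), 5′ to 3′ toward the gene, with every match to the first 4 of these motifs in capitals. They show the interval shared by Psmb9 and Tap1, which were both called higher with doxorubicin. The window of Psmb8, which lies past the other end of Tap1, and those of the heavy chains and B2m follow for comparison.
Psmb9 to Tap1 interval, chr17:34187331-34187555, strand of Tap1 (plus): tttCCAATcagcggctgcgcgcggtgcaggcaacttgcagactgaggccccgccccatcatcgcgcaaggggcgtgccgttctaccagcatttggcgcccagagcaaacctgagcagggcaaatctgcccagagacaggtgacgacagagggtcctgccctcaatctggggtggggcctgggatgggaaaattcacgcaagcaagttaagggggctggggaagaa
Psmb8, chr17:34197945-34198194, plus strand: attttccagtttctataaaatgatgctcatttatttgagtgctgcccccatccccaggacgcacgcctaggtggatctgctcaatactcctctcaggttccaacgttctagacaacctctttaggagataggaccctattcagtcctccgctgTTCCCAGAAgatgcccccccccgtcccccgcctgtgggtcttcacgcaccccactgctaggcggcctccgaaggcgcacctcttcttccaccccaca
H2-K1, chr17:34000348-34000597, minus strand: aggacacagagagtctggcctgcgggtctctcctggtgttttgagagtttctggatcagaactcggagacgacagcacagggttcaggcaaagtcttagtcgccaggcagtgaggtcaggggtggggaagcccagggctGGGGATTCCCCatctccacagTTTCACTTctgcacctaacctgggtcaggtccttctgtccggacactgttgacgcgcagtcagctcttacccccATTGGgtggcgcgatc
H2-D1, chr17:35262844-35263093, plus strand: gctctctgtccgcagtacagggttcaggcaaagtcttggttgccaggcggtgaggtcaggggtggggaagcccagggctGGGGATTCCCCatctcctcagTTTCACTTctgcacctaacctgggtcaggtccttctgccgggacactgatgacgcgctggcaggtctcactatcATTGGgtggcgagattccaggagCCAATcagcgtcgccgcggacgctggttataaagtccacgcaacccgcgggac
B2m, chr2:122147437-122147686, plus strand: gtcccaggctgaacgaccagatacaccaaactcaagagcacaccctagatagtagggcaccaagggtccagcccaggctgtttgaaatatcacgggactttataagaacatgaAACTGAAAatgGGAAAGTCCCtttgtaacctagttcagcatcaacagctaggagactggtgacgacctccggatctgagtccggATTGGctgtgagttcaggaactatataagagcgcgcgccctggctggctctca

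The heavy chains and B2m held an IRF core and an NF-kB match next to each other in the 250 bases before their starts. In H2-K1 and H2-D1 the NF-kB letters give a pair of overlapping matches. In B2m the IRF core ended 130 bases and the NF-kB match began 126 bases before the start. Of the 8 genes with a window in RefSeq (all but Tap2 and Nlrc5), 3 held an IRF core and 3 an NF-kB match, against 21.3% and 3.90% of 32851 promoter windows of 250 bases. The GAS letters were in 1 of the 8, Psmb8, where they spanned bases 97 to 89 before the start (7.02% of all windows). A CCAAT box was in 6 of the 8 (33.8% of all windows) and the p53 half-site in 0 of the 8 (7.13%). The windows of Psmb9 and Tap1 share the interval printed above, and the CCAAT box counted for each of them is the same site. A match is a description of letters and does not show binding.

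With doxorubicin, Tap1, Psmb9, H2-K1 and Tapbp rose over all 9 libraries, and no member was called lower. Tap2, Psmb8 and Psmb10 had negative log2 fold changes that did not pass the test. The quasi-likelihood test of edgeR, with genotype in the model and Benjamini-Hochberg adjustment over 16656 genes, called 4 of the 10 genes higher at an FDR under 0.01, where 21.9% of all genes tested were called higher and 18.7% lower. The median log2 fold change was 0.92 over the 10 genes and 0.02 over all genes tested. In 5 of the 10 (the same 4 and H2-D1) each doxorubicin library lay above each control library, as it did in 24.3% of all genes, and in 0 of the 10 each lay below (22.1% of all genes). Without the Het culture and KO embryo 3, the libraries that stood apart, 8 of the 10 genes were called higher, all but Tap2 and Psmb10, against 35.1% of 15442 genes; this setting was chosen after seeing the data.

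**Figure D2:**
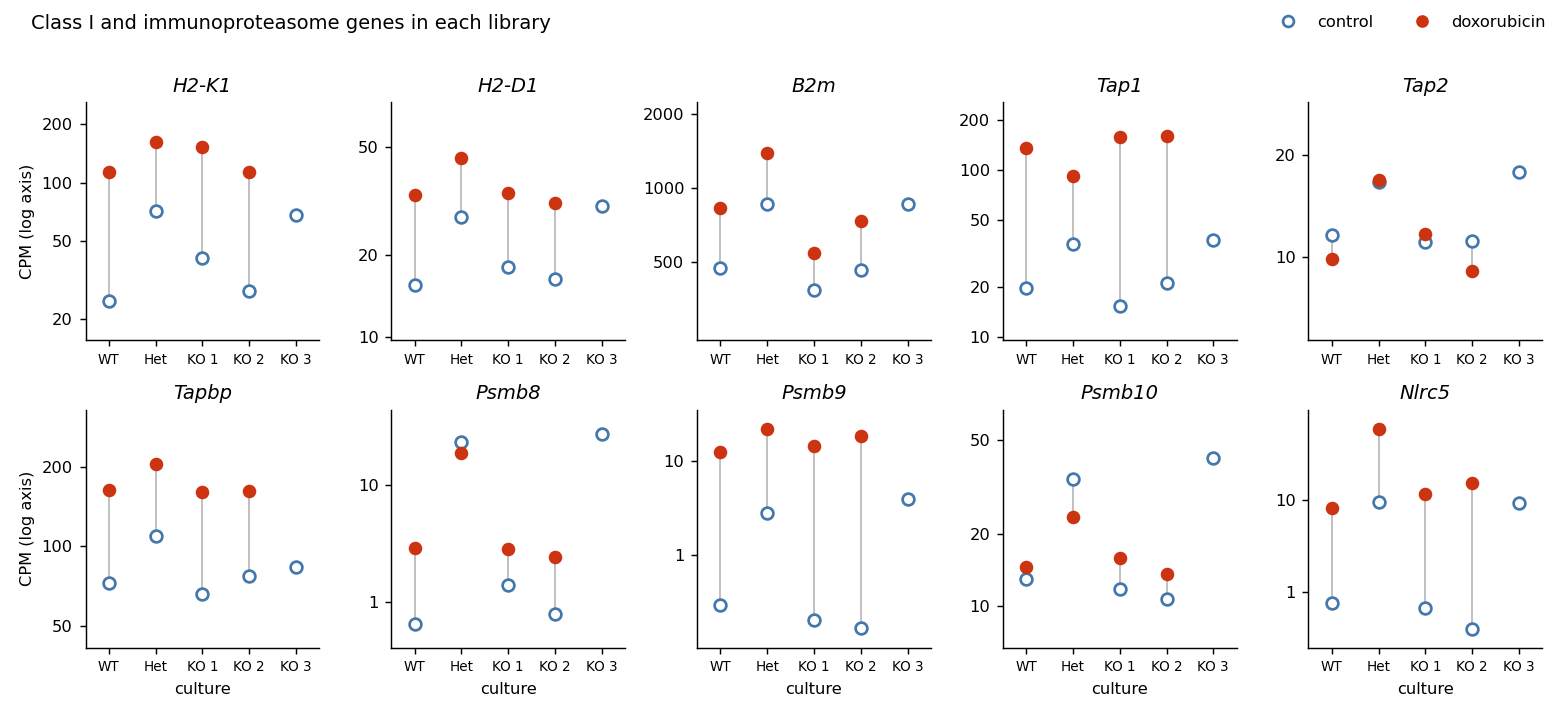
CPM (log axes, a scale per gene) of the 10 genes in each of the 9 libraries, by culture; open points are control, filled points doxorubicin, and a line joins the libraries of a culture. Tap1, Psmb9, H2-K1, H2-D1 and Tapbp show all doxorubicin points above all control points, while Psmb8, Psmb10 and Tap2 are highest in the Het libraries and KO 3 control.

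Of the heavy chains, H2-K1 stood in control at 24.8 CPM for WT and 71.3 for Het, beside 41.0, 27.8 and 68.1 for KO 1, 2 and 3. With doxorubicin it stood at 113 CPM for WT and 161 for Het, beside 153 and 114 for KO 1 and 2. The groups did not overlap, and H2-K1 rose by a log2 fold change of 1.62 (SE 0.28, adjusted p = 0.00126). Within cultures the ratio was 4.56 in WT (95% counting interval 4.13 to 5.03), 2.26 in Het, 3.73 in KO 1 and 4.08 in KO 2, lowest in Het, the culture of these 4 with the highest control level. These intervals cover counting error only.

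H2-D1, the other classical heavy chain tested, stood in control at 15.5 CPM for WT and 27.5 for Het, beside 18.1, 16.3 and 30.4 for KO, and with doxorubicin at 33.4 for WT and 45.8 for Het, beside 33.9 and 31.2 for KO. The doxorubicin libraries lay above the control libraries with a narrow gap to KO 3, and the log2 fold change of 0.76 (SE 0.22) did not pass the test (adjusted p = 0.0154). Its ratio within cultures was 1.66 to 2.15, and that of the library named KO 2 to KO 3 control was 1.03 (0.922 to 1.14). B2m, the light chain shared by all class I molecules, stood in control at 474 CPM for WT and 858 for Het, beside 385, 466 and 863 for KO. With doxorubicin it stood at 826 CPM for WT and 1391 for Het, beside 542 and 734 for KO. The groups overlapped and the test did not call it (log2 fold change 0.45, SE 0.30, adjusted p = 0.235), although the doxorubicin library was 1.41 to 1.74 times the control library in each of the 4 cultures with both. Against KO 3 control, the library named KO 2 was at 0.850 (0.833 to 0.869).

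Tap1, a subunit of the peptide transporter, stood in control at 19.6 CPM for WT and 36.3 for Het, beside 15.2, 21.1 and 38.2 for KO, and with doxorubicin at 137 for WT and 92.7 for Het, beside 159 and 160 for KO. The lowest doxorubicin library lay above the highest control library. Tap1 rose by a log2 fold change of 2.44 (SE 0.32, adjusted p = 0.000327), and passed in each of the 16 alternative settings tried. The ratio had a 95% counting interval of 6.30 to 7.81 in WT, and was 10.5 in KO 1 (9.27 to 11.8) and 7.61 in KO 2 (6.84 to 8.49), but 2.55 in Het (2.35 to 2.76), whose Tap1 was the highest of the 4 cultures in control and the lowest with doxorubicin.

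Tap2, the partner with which Tap1 forms the transporter, did not follow it. In control, Tap2 stood at 11.6 CPM for WT and 16.6 for Het, beside 11.1, 11.2 and 17.8 for KO, and with doxorubicin at 9.86 for WT and 16.9 for Het, beside 11.7 and 9.13 for KO. It was highest in both Het libraries and KO 3 control. Its log2 fold change was -0.23 (SE 0.21, adjusted p = 0.397), and the ratios within cultures ran from 0.818 in KO 2 (0.669 to 1.00) to 1.06 in KO 1 (0.869 to 1.28). Over the 9 libraries, the log2 CPM of Tap1 and Tap2 had a Pearson r of -0.20, the lowest of any pair among the 10 genes. Per kilobase of exon, Tap1 was at 5.15 to 12.9 CPM in control against 3.22 to 5.16 for Tap2, and at 31.4 to 54.3 against 2.65 to 4.91 with doxorubicin.

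Tapbp, which bridges the transporter and the empty heavy chain, stood in control at 72.2 CPM for WT and 109 for Het, beside 65.9, 77.2 and 83.7 for KO, and with doxorubicin at 163 for WT and 205 for Het, beside 161 and 162 for KO. The groups did not overlap. Tapbp rose by a log2 fold change of 1.09 (SE 0.14, adjusted p = 0.000247), the smallest adjusted p of the 10, with ratios of 1.89 in Het to 2.44 in KO 1.

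Of the immunoproteasome subunits, Psmb9 had the largest log2 fold change of the 10 genes with doxorubicin. It held 6 counts in WT, 4 in KO 1 and 3 in KO 2 in control (0.169 to 0.302 CPM) against 69 in Het (2.82 CPM) and 87 in KO 3 (3.92 CPM). With doxorubicin it held 248 counts in WT, 453 in Het, 257 in KO 1 and 402 in KO 2, or 12.3 to 21.5 CPM. The groups did not overlap, and Psmb9 rose by a log2 fold change of 3.68 (SE 0.83, adjusted p = 0.0053). The low control counts leave the ratio wide: 40.9 in WT (18.5 to 112), 68.4 in KO 1 (26.4 to 253) and 109 in KO 2 (37.1 to 531), against 7.63 in Het (5.91 to 9.98). Leaving out WT, Het, KO 1 or KO 2 ended the call (adjusted p 0.0194 to 0.0261), and so did fitting the KO libraries alone (adjusted p = 0.0837).

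Psmb8, the neighbour of Tap1 on its other side, differed more between cultures than between treatments. In control it stood at 0.654 CPM for WT (13 counts) and 23.4 for Het, beside 1.40, 0.789 and 27.6 for KO, and with doxorubicin at 2.94 for WT and 18.9 for Het, beside 2.87 and 2.43 for KO. The Het libraries and KO 3 control lay above all other libraries of either treatment. The log2 fold change over all libraries was -0.71 (SE 1.17, adjusted p = 0.630). Within cultures Psmb8 was higher with doxorubicin in WT, 4.49-fold (2.43 to 8.92), KO 1, 2.05-fold (1.27 to 3.40), and KO 2, 3.08-fold (1.69 to 6.02), and lower in Het, at 0.806 of control (0.708 to 0.918). Without the Het culture and KO embryo 3 the log2 fold change was 1.55 (adjusted p = 0.0013). The Het and KO 3 control levels were 35.8 times (20.8 to 67.6) and 42.2 times (24.5 to 79.7) that of WT control, and the part played by the leukocyte, fibroblast and interferon-stimulated sums, which move with these libraries, was not tested.

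Psmb10, the remaining inducible subunit, had the same pattern with a smaller range. In control it stood at 13.0 CPM for WT and 34.1 for Het, beside 11.8, 10.7 and 41.7 for KO, and with doxorubicin at 14.6 for WT and 23.7 for Het, beside 15.8 and 13.5 for KO. The highest values were again those of Het and KO 3. The log2 fold change was -0.36 (SE 0.41, adjusted p = 0.482), and 0.32 (adjusted p = 0.0469) without the Het culture and KO embryo 3.

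Set against the standard subunit it replaces, per kilobase of exon, Psmb8 made up 0.602% of Psmb5 in WT control, 1.60% in KO 1 and 0.915% in KO 2, and 23.8% in Het and 29.7% in KO 3. With doxorubicin it made up 2.95% to 3.44% in those 3 cultures and 27.8% in Het. Psmb9 went from 0.0840% to 0.153% of Psmb6 in control in WT, KO 1 and KO 2 to 5.67% to 9.28% with doxorubicin, and from 0.927% to 11.3% in Het. Psmb10 lay between 6.39% and 7.87% of Psmb7 in control in the same 3 cultures, between 10.0% and 10.4% with doxorubicin, and at 22.2% to 28.8% in Het and KO 3. None of the standard subunits Psmb5, Psmb6 and Psmb7 passed the test with doxorubicin, their log2 fold changes being -0.22, -0.23 and -0.26. In Het, however, they were at 0.692, 0.625 and 0.659 of control, against 0.821 to 1.14 in WT, KO 1 and KO 2. Psmb8 and Psmb10 themselves were at 0.806 and 0.695 of control in Het, so their percents there did not fall with them.

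**Figure D3:**
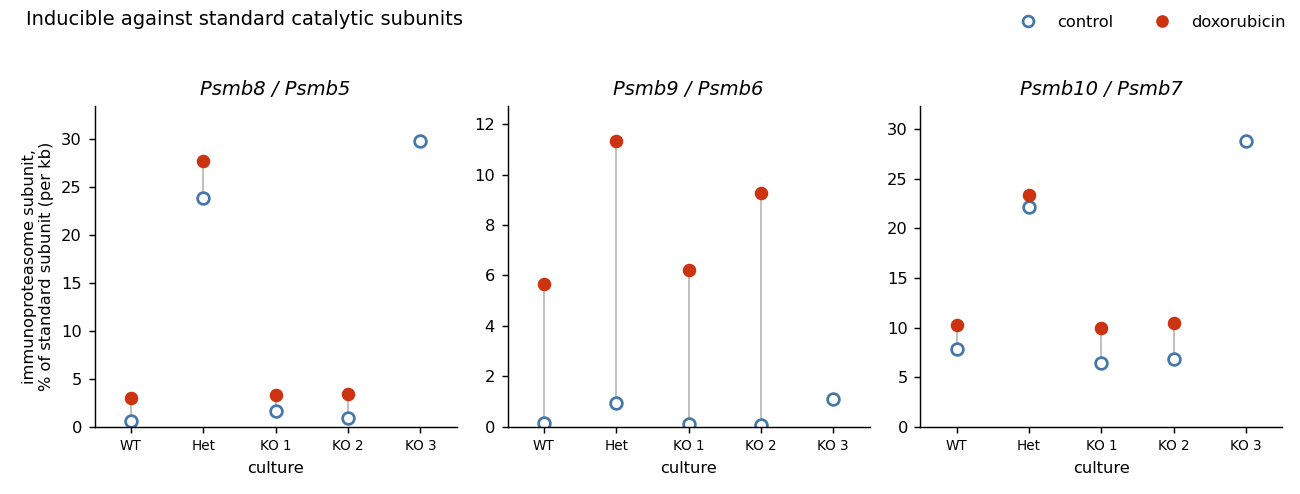
Level per kilobase of exon of each inducible subunit as a percent of the standard subunit it replaces (linear axes from 0), by culture; open points are control, filled points doxorubicin. Psmb9 is higher with doxorubicin in each culture, 5.67% to 11.3% against at most 1.12% in control, while Psmb8 and Psmb10 are highest in Het and KO 3.

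Nlrc5, the class I transactivator, stood in control at 0.755 CPM for WT (15 counts) and 9.54 for Het, beside 0.673, 0.395 and 9.29 for KO. With doxorubicin it stood at 8.16 CPM for WT and 60.2 for Het, beside 11.6 and 15.3 for KO. WT with doxorubicin lay below Het and KO 3 in control, so the groups overlapped, and the log2 fold change of 2.43 (SE 0.81) did not pass the test (adjusted p = 0.0302). In each culture the doxorubicin library was higher, 10.8-fold in WT (6.37 to 19.8), 6.31-fold in Het (5.48 to 7.29), 17.2-fold in KO 1 (9.85 to 32.9) and 38.9-fold in KO 2 (18.6 to 97.4), each above the ratio of Tap1 in the same culture. Without the Het culture and KO embryo 3, Nlrc5 rose by 4.22 on the log2 scale (adjusted p = 8.01e-07). Per kilobase it was the lowest of the 10 genes in each control library.

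**Figure D4:**
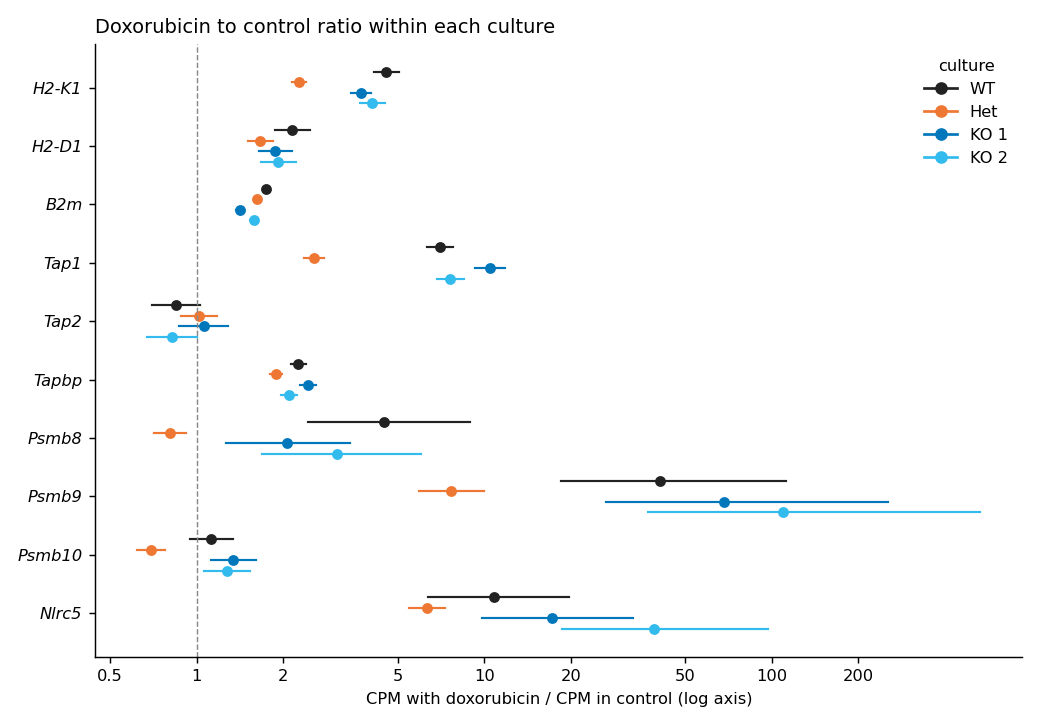
Ratio of the CPM with doxorubicin to that in control within each of the 4 cultures with both libraries (log axis), for the 10 genes; points are ratios, bars 95% counting intervals and the dashed line a ratio of 1. Psmb9, Nlrc5, Tap1, H2-K1, H2-D1, B2m and Tapbp lie right of 1 in each culture, Tap2 stays near 1, and Psmb8 and Psmb10 lie left of 1 in Het alone.

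Read within single cultures, with 1 library a treatment and hence no test, and on the log2 CPM scale with a prior count of 2, 7 of the 10 genes were more than 2-fold higher with doxorubicin in WT (27.3% of all genes tested), 4 in Het (24.2%), 5 in KO 1 (26.9%) and 6 in KO 2 (27.1%). Psmb8 in KO 1, 2.05-fold by its plain ratio, fell short on this scale. None of the 10 was more than 2-fold lower in any culture. The 4 in Het were H2-K1, Tap1, Psmb9 and Nlrc5, which were also past 2-fold in the other cultures.

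These ratios in KO 2 rest on the name given to the library that 2 columns share. Set against KO 3 control instead, it was 4.70 times as high in Psmb9 (3.72 to 6.00), 4.20 in Tap1 (3.89 to 4.53), 1.93 in Tapbp, 1.67 in H2-K1 (1.56 to 1.78) and 1.65 in Nlrc5 (1.38 to 1.97). It was at 0.514 of KO 3 control in Tap2, 0.325 in Psmb10 and 0.0881 in Psmb8 (0.0653 to 0.117). Psmb9, Tap1, Tapbp, H2-K1 and Nlrc5 were higher in it than in KO 2 control and KO 3 control, and B2m, Psmb8, Psmb10 and Tap2 were lower than in KO 3.

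Along the 4 neighbouring genes on chromosome 17, the response to doxorubicin and the difference between cultures were not parallel. The log2 ratio of doxorubicin to control ran over the 4 cultures from 2.93 to 6.77 in Psmb9, from 1.35 to 3.39 in Tap1, from -0.31 to 2.17 in Psmb8 and from -0.29 to 0.08 in Tap2. The log2 ratio of Het or KO 3 to WT in control was 3.22 and 3.70 in Psmb9, 0.89 and 0.96 in Tap1, 5.16 and 5.40 in Psmb8 and 0.52 and 0.61 in Tap2. Among these 4 genes Psmb9 had the highest ratio to control within each culture and Tap1, which shares the interval printed above, the next. Psmb8, 495 bases past the end of Tap1, had the highest ratio of Het and of KO 3 to WT.

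**Figure D5:**
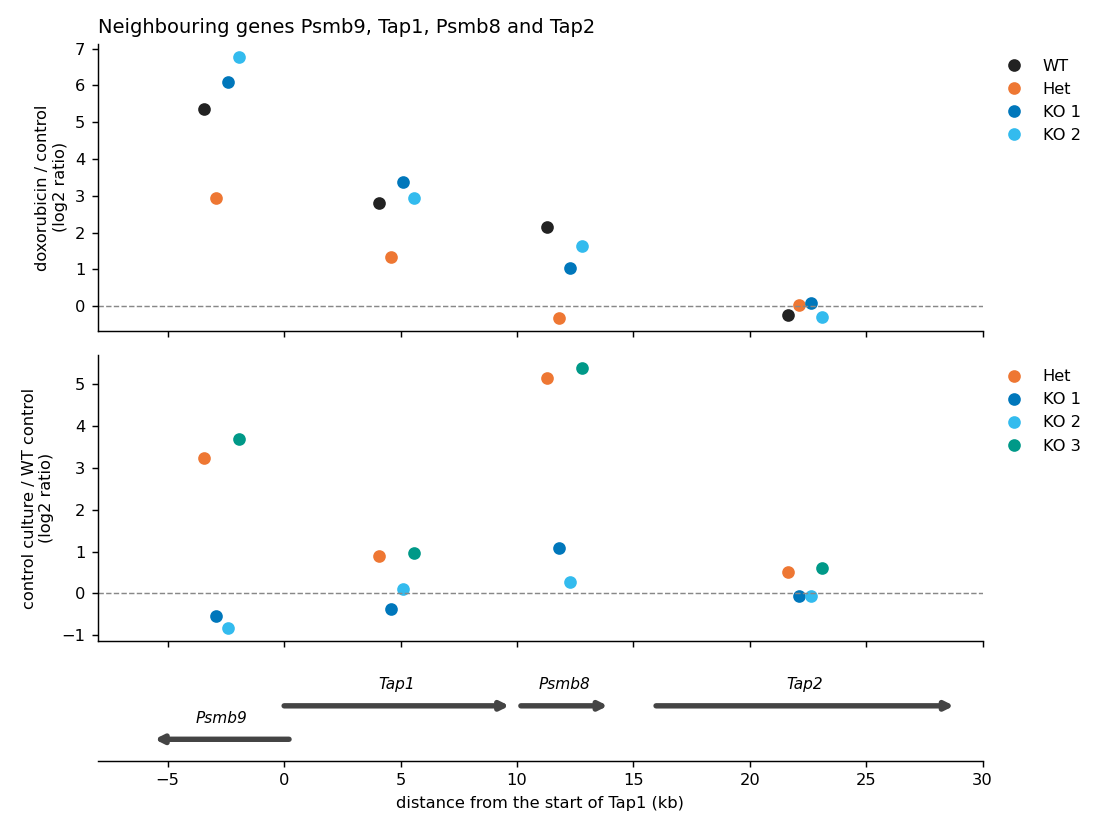
Log2 ratios (linear axes) of Psmb9, Tap1, Psmb8 and Tap2, placed at the middle of each gene by distance in kb from the start of Tap1: doxorubicin over control in each culture (top) and each control culture over WT control (middle), with the genes as arrows in the direction of transcription (bottom). With doxorubicin the values are highest in Psmb9, 2.93 to 6.77, whereas Psmb8 is highest in Het and KO 3 control, 5.16 and 5.40.

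Between genotypes, none of the 10 genes passed the test. In KO against WT control (3 against 1 library), 0 of the 10 were called, as were 0% of 14470 genes tested, with 10 genes at an unadjusted p under 0.05 and 0 calls by DESeq2. Without KO embryo 3, Psmb9 did not pass the filter on low counts, and the median of the other member genes was -0.04. Psmb9 held 6 counts in WT, 4 in KO 1, 3 in KO 2 and 87 in KO 3. With KO embryo 3, all 10 log2 fold changes were positive, with a median of 0.64 against 0.04 over all genes. The largest was that of Psmb8, 3.97 (SE 2.70, adjusted p = 1.00), which was 0.76 without KO embryo 3. KO control averaged 9.93 CPM ± 15.3 (SD, n = 3) in Psmb8, 1.43 ± 2.16 in Psmb9, 3.45 ± 5.06 in Nlrc5, 21.4 ± 17.6 in Psmb10, 45.6 ± 20.5 in H2-K1 and 75.6 ± 8.97 in Tapbp, so that in Psmb8, Psmb9 and Nlrc5 the SD exceeded the mean.

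In control, KO 3 stood with Het rather than with KO 1 and KO 2. More than 2-fold above WT control were 5 of the 10 genes in KO 3 (20.3% of all genes) and 5 in Het (22%), both times H2-K1, Psmb8, Psmb9, Psmb10 and Nlrc5. In KO 1 and KO 2 it was 0 of the 10 (4.14% and 2.29% of all genes), on the log2 CPM scale with a prior count of 2. By its plain ratio Psmb8 in KO 1 was 2.14 times WT (1.06 to 4.51). Psmb9 in KO 3 was 13.0 times (5.73 to 36.4) and in Het 9.35 times (4.09 to 26.4) the WT level, Nlrc5 12.3 and 12.6 times, Psmb10 3.21 and 2.63 times and H2-K1 2.74 and 2.87 times. In KO 1 and KO 2, H2-K1 was 1.65 (1.47 to 1.85) and 1.12 (0.989 to 1.27) times WT, and the interval of Nlrc5 and of Psmb9 held 1 in both.

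With doxorubicin, KO (2 libraries) against WT (1 library) again called 0 of the 10 genes, while 30 of 15256 genes passed (0.197%); of all genes, 0 passed in a single fit of the 9 libraries. Of the 10, 1 had an unadjusted p under 0.05, Nlrc5, with a log2 fold change of 0.72 (SE 0.28, adjusted p = 1.00), and DESeq2 called 0. The other log2 fold changes lay between -0.37 in B2m and 0.41 in Psmb9, and the median was 0.04. KO averaged 160 CPM ± 0.926 (SD, n = 2) in Tap1 and 161 ± 0.880 in Tapbp, beside 137 and 163 in WT. The Het library with doxorubicin was more than 2-fold above WT in 2 of the 10 genes (16.3% of all genes), Psmb8 at 6.43 times (4.88 to 8.60) and Nlrc5 at 7.37 times (6.26 to 8.73), and Tap1 was below WT at 0.676 times (0.637 to 0.716).

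The test of whether the doxorubicin change differed between KO and WT called 0 of the 10 genes and 0% of 15905 genes, with 41 genes, none of them a member, at an unadjusted p under 0.05 and 0 calls by DESeq2. The median interaction of the 10 was -0.64 and turned to 0.05 without KO embryo 3, which has no distinct doxorubicin library. That of Tap1 was -0.13 (SE 0.74) and that of Tapbp -0.08 (SE 0.40).

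Few of the other genes of peptide presentation passed the test with doxorubicin. Of 25 class I heavy chain genes of the classical and non-classical types, 13 were tested, and H2-K1 and H2-Bl rose and H2-M9 fell. H2-Q6, H2-Q7, H2-T9 and H2-T22, which are close copies of other genes, held no count in any library, which allows up to 0.123 to 0.169 CPM. Of 10 genes of peptide loading and trimming, 1 fell, the cytosolic aminopeptidase Npepps (log2 fold change -0.80, SE 0.19, adjusted p = 0.00704), and the median of the list was -0.02. Of 8 genes of the proteasome activators, the standard catalytic subunits and their assembly, 0 passed. Psmb5, Psme1 and Psme2 among them lie on chromosome 14, as Sall2 does. Psme2, a subunit of the interferon-inducible PA28 activator, which is named after its values were seen, was at 8.62 to 10.0 CPM in WT, KO 1 and KO 2 control and 27.2 to 31.2 with doxorubicin, and at 36.8 and 54.9 in Het (log2 fold change 0.80, adjusted p = 0.204).

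Of the factors that bind class I promoters, all 8 passed, 3 higher and 5 lower, where 21.9% of all genes were called higher and 18.7% lower. Rfx5, the DNA-binding subunit of the RFX complex that recruits Nlrc5, fell by 1.06 on the log2 scale (SE 0.24, adjusted p = 0.00583), from 17.3 to 34.6 CPM in control to 9.59 to 17.8 with doxorubicin. Its partner Rfxank fell by 1.72 (adjusted p = 0.0038). The other RFX subunit, Rfxap, which is named after its values were seen, rose by 0.66 (adjusted p = 0.00874). Atf1, a CREB family factor, fell by 1.33 (adjusted p = 0.000147). Of the NF-Y complex, which binds CCAAT boxes, Nfya rose by 0.54 (adjusted p = 0.0045) and Nfyb by 0.92 (adjusted p = 0.00136), while Nfyc fell by 0.93 (adjusted p = 0.0041).

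Of 17 genes of interferon signalling, 0 rose and 2 fell, the kinase Tyk2 (log2 fold change -1.22, adjusted p = 0.00595) and the NF-kB subunit Nfkb1 (-0.98, adjusted p = 0.000229). Irf1, which acts on class I and immunoproteasome promoters, was at 1.97 times control in WT, 2.53 in KO 1, 2.23 in KO 2 and 0.849 in Het (0.766 to 0.941).

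Of 17 interferon-stimulated genes, 0 passed in either direction, and their median log2 fold change was -0.69. Their summed level was 180, 201 and 170 CPM in WT, KO 1 and KO 2 control and 427, 489 and 513 with doxorubicin, against 2901 and 1689 in Het. Isg15, a ubiquitin-like modifier named after its values were seen, was 25.2 times control in WT, 13.2 in KO 1 and 25.9 in KO 2, and 0.450 in Het (0.434 to 0.467). Of 7 interferon genes in the table, 1 had enough counts to be tested, Ifnb1, which was at 1.11 CPM in Het and 1.85 in KO 3 control, 1.66 in Het with doxorubicin and at most 0.165 in the other 6 libraries. Ifnb1 was detected above 3 counts in the libraries that stood apart. In Het and KO 3 control every member gene lay above the other control libraries, but the share of all genes that did so was not counted. More than 2-fold above WT control were 5 member genes in Het (22% of all genes) and 5 in KO 3 (20.3%). Whether interferon had a part in the levels of the member genes was not tested.

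The markers of class II presentation, by which macrophages and other professional antigen-presenting cells are known, were at 4.88 to 30.8 CPM in sum over 7 genes. Their sum was highest in Het in each treatment. It was 14.9 CPM in Het control against 4.88 to 7.58 in the other control libraries, and 30.8 against 17.9 to 18.7 with doxorubicin. Of 6 tested, 2 rose with doxorubicin, H2-DMa (log2 fold change 1.83, adjusted p = 8.00e-05) and H2-Eb1 (2.33, adjusted p = 0.00934). Among the leukocyte markers, Cd68 rose (1.10, adjusted p = 0.00099) and Csf1r fell (-1.14, adjusted p = 0.00575). The part of such cells in the levels of the 10 genes was not tested.

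Levels of different genes were compared per kilobase of exon. On that scale B2m was at 447 to 1003 CPM in control and was the highest of the 10 in each library. H2-K1 followed at 15.0 to 43.1 and Tapbp at 22.7 to 37.6 in control, which overlap, then Psmb10 at 8.13 to 31.8 and H2-D1 at 7.37 to 14.5, and Nlrc5 was lowest at 0.0568 to 1.37. With doxorubicin H2-K1 was at 68.3 to 97.6, Tapbp at 55.4 to 70.9 and Tap1 at 31.4 to 54.3, and the lowest of the 10 was Nlrc5 in WT and KO 1, Tap2 in Het and Psmb8 in KO 2.

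The genes of no list whose log2 CPM followed the mean of the 10 most closely over the 9 libraries, among 13750 genes at a mean of at least 1 CPM, were Ndufa11 (Pearson r 0.996), B930059L03Rik (0.994), Ppifos (0.992), Hsbp1 (0.991) and Ankrd10 (0.991). Ndufa11, a subunit of mitochondrial complex I, was at 51.3 to 52.8 CPM in WT, KO 1 and KO 2 control, 132 in Het and 162 in KO 3 control, and 141 to 255 with doxorubicin. The points share library and depth. Among the 10 genes themselves, the highest r was that of H2-D1 and Nlrc5, 0.97.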

How the data were processed

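Poly(A)-enriched, rRNA-depleted RNA was sequenced with a strand-marking kit as single reads. Each library had 4 FASTQ files, which the authors joined and aligned to mm10 with HISAT2 (2.1.0 in the submitters' processing notes). After sorting with Picard, they ran HTSeq (union) with iGenomes genes. The deposited values are raw counts per gene, neither filtered nor normalized, and each of the 10 columns names its library (0 columns were left unassigned). The authors' later normalization with RUVg and their test are not in this table.

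From these counts, TMM factors and log2 CPM (prior count 2), the quasi-likelihood test of edgeR 4.0.16 (glmQLFit and glmQLFTest, two-sided) were computed in R 4.3.3, with Benjamini-Hochberg adjusted p under 0.01 as the threshold, after filterByExpr over the libraries compared. Doxorubicin against control used genotype as a covariate; the other fits held only the groups compared. DESeq2 1.42.0, the RUVg method recoded with 1 factor, other filters, thresholds and left-out cultures were the alternatives. The test was checked on simulated counts.

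Ratios of single libraries have 95% counting intervals, which take the counts as independent molecules. Exon lengths are unions over GENCODE transcripts with a RefSeq accession. Named genes are the 10 members, Sall2, the standard subunits, Irf1, Rfx5, the smallest p (or, with none past the threshold, the highest levels) in each list, and the 5 genes with the closest pattern; others are said to be named after their values were seen, and some results are not reported here. The members and the lists were chosen with earlier results of these data known.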

Additional observations from a re-analysis of the deposited data

Results flagged for a closer look

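The log2 ratio of doxorubicin to control of Psmb8 went one way in WT (2.17), KO 1 (1.04) and KO 2 (1.62) and the other way in Het (-0.31). That of Psmb10 was 0.17 in WT, 0.42 in KO 1 and 0.35 in KO 2 and -0.52 in Het. The WT ratio of Psmb10, 1.12, had a 95% counting interval that held 1 (0.947 to 1.33). Het has 1 library a treatment, and the difference itself was not tested. The library named KO 2 with doxorubicin may be that of KO 3, and against KO 3 control its log2 ratio was -3.50 in Psmb8 and -1.62 in Psmb10, the direction of Het.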

How the results depend on the processing

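Tap1 kept its call with doxorubicin in the 16 alternatives, Tapbp in 15 (adjusted p = 0.0122 in the KO libraries alone), H2-K1 in 13 and Psmb9 in 10, and all 4 kept their direction. The number of the 10 genes passing went from 4 to 2 at an FDR of 0.001, 1 in the KO libraries alone and 2 to 7 when a culture was left out (2 without KO 1, 7 without KO 3). The replicate numbers are shared by KO control and doxorubicin titles but only number the samples; the KO 1 to KO 2 differences in control and with doxorubicin had r = 0.34 over 16656 genes. The fit with a replicate block passed 7 of the 10, adding B2m (adjusted p = 0.000325), H2-D1 (0.000191) and Nlrc5 (4.97e-05). With the identical library taken as KO 3 it passed 5, with B2m (0.171) and H2-D1 (0.0217) not called, Nlrc5 called (0.00225) and Psmb8 at -0.14. Without Het and KO 3, chosen after seeing the data, it was 8 without and 8 with the replicate block. The log2 fold change with doxorubicin reversed in Psmb8 (0.92 with the replicate block, 1.55 without Het and KO 3, 1.56 with both, -1.40 to 0.93 over left-out cultures) and Psmb10 (0.11, 0.32, 0.32 and -0.52 to 0.11).

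When a KO embryo was left out of KO against WT in control, the median ran from -0.042 (without KO 3) to 0.89. Without KO 3, Psmb9 was not tested and is not part of that median. B2m ran from -0.13 to 0.53, Tap1 from -0.088 to 0.64, Tap2 from -0.042 to 0.36, Psmb10 from -0.19 to 1.09 and Nlrc5 from -0.46 to 2.77. In the interaction the median ran from -0.86 to 0.047, Tap1 from -0.38 to 0.31, Tap2 from -0.44 to 0.12, Psmb9 from -2.61 to 1.04, Psmb10 from -1.13 to 0.19 and Nlrc5 from -2.26 to 1.19, the last of each without KO 3. With the replicate block the interaction had a median of 0.067, with 0.34 in Tap1, 0.13 in Tap2, 0.00037 in Tapbp, 1.05 in Psmb9, 0.22 in Psmb10 and 1.19 in Nlrc5, and also without KO 3 a median of 0.047, with 0.32 in Tap1, 0.11 in Tap2, 1.03 in Psmb9, 0.20 in Psmb10 and 1.17 in Nlrc5. None of these passed. Counting the identical libraries as 2 turned Psmb10 in KO against WT with doxorubicin to -0.029, and scaling by total counts turned the Tap2 ratio in KO 2 to 0.0067 (log2). The cause was not tested. KO against WT with doxorubicin leaves no residual degree of freedom without a culture; in a single fit of all libraries, added after seeing the data, in which a lone library is taken to vary like the other groups, leaving out a KO embryo gave medians of -0.051 to 0.15, Tap2 of -0.11 to 0.23, Psmb10 of -0.11 to 0.10 and H2-D1 of -0.094 to 0.011, with 0 of the 10 passing. Over all genes, doxorubicin calls went from 6760 to between 2916 (without KO 2) and 9770 (without KO 3), to 1911 in the KO libraries alone, and to 10281 without Het and KO 3 (11559 with the replicate block). In KO against WT, calls in control went from 0 to 47 without KO 1, 41 without KO 2 and 239 with RUVg, and with doxorubicin from 30 to 5 with DESeq2, 4 with the filter at 5 counts, and 0 in the single fit of all 9 libraries or with the identical libraries counted as 2. Interaction calls went from 0 to 13 without KO 1, 13 without KO 2 and 8 with the replicate block. Depth limits the ratios of Psmb9, Psmb8 and Nlrc5, which rest on 3 to 27 control counts in WT, KO 1 and KO 2.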
